A study of Mus musculus with 3 samples.

Results

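The loci of 10 mouse genes for retinoic acid signalling were examined in a map of MEIS2 binding: the receptor genes Rara, Rarb, Rarg, Rxra, Rxrb and Rxrg, the synthesis enzyme genes Aldh1a1, Aldh1a2 and Aldh1a3, and the degradation enzyme gene Cyp26b1. They were chosen by name from 21887 protein-coding genes, and a locus was the annotated gene with 50 kb on each side, 2146 kb in all. MEIS2 is a homeodomain transcription factor. CUT&Tag maps such a factor with an antibody that recruits the Tn5 transposase, which inserts sequencing adapters into the DNA nearby. The MEIS2 group was 2 libraries made with a mouse polyclonal antibody to MEIS2, and the no-antibody group was 1 library. All came from 100000 cells each of the lateral ganglionic eminence (LGE), the embryonic region that produces striatal projection neurons, of E14.5 embryos of wild-type CD1 mice. The labels do not say whether the MEIS2 libraries came from separate litters or pools. No expression was measured, so neither the tissue's marker genes nor the activity of these genes could be checked.

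Retinoic acid is made from vitamin A in a pair of oxidation steps, the last of which is carried out by the retinaldehyde dehydrogenases that the Aldh1a genes encode. It binds retinoic acid receptors (RARs), which pair with retinoid X receptors (RXRs) on response elements in DNA and change the transcription of nearby genes. Cytochromes of the CYP26 family break it down. In the developing mouse forebrain, Aldh1a3 is known as the synthesis enzyme of the LGE, and Rarb and Rxrg are known for their expression in the striatum.

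The 250 bases upstream of a listed start site are shown for a receptor with a peak and a matched element, a receptor with a peak and no match, the degradation enzyme, and a synthesis enzyme with no peak at the start shown. The sequences are from RefSeq (GRCm38.p6, the assembly that mm10 names), written 5′ to 3′ on the gene's own strand. Capitals mark matches to the searched motifs. The Rarb promoter lies at chr14:16575477-16575726 on the minus strand, the Rxrg promoter at chr1:167598112-167598361 on the plus strand, and the Cyp26b1 promoter at chr6:84593811-84594060 on the minus strand. For Aldh1a1 the promoter of the first of its listed start sites is shown, at chr19:20492333-20492582 on the plus strand.
Rarb: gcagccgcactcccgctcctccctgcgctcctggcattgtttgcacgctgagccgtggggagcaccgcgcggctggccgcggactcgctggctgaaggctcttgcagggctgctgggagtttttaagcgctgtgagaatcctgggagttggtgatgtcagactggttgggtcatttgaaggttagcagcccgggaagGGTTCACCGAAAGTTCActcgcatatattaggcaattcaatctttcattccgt
Rxrg: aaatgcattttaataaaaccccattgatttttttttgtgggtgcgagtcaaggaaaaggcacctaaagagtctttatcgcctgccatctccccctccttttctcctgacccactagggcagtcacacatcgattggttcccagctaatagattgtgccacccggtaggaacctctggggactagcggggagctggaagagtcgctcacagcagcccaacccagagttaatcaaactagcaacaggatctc
Cyp26b1: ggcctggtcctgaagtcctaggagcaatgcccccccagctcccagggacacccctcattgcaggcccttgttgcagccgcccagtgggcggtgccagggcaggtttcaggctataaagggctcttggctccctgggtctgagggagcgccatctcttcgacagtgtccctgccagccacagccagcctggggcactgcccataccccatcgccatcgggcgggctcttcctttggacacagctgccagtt
Aldh1a1: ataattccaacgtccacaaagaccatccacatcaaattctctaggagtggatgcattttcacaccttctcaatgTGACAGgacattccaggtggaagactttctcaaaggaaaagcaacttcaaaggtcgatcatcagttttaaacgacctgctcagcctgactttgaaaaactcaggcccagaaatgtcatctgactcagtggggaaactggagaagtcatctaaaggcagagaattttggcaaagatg
The capitals in Rarb, 53 to 37 bases before the start site, are a DR5, a direct repeat of the nuclear receptor half-site with a 5-base spacer. A DR5 in this promoter is a textbook retinoic acid response element, through which the receptor gene is induced by its own ligand. A DR5 was present in 16 of the 21263 listed start-site windows of protein-coding genes, or 0.0752%. The capitals in Aldh1a1, 176 to 171 bases before the start, are TGACAG, the core letters that MEIS proteins prefer, which 15.4% of all such windows held on either strand. Among the 17 start-site windows of the 9 members in the RefSeq start-site set used here, no other match to TGACAG or DR5 was found, and none to TGATTGAC, DR2 or DR1. TGATTGAC, the core of a joint PBX and MEIS site, was in 0.696% of all windows, DR2 in 0.0752% and DR1 in 0.122%. TGACAG and TGATTGAC share the letters TGAC and can overlap. A match is a description of these letters and not a measured binding site.

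Each library has its own deposited list of peaks, called by the authors without a control. MEIS2 replicates 1 and 2 held 74259592 and 79760948 tags and the no-antibody library 72763762, of which shares of 0.90, 0.92 and 0.91 were redundant. After removal of repeated positions, 7618406 and 6559629 tags were used in MEIS2 replicates 1 and 2, against 6337375 in the no-antibody library. On the main chromosomes these gave 78060 and 82093 peaks in the MEIS2 libraries and 9869 in the no-antibody library. A peak of MEIS2 replicate 1 was called reproducible when it shared at least 1 bp with a peak of replicate 2 and touched no peak of the no-antibody library, a rule that 47809 peaks met. For each peak the authors give the pileup, a count of the tags piled over its summit, and the fold enrichment, the pileup over the tags expected from the surroundings. The caller's fragment length was 172 and 162 bp in MEIS2 replicates 1 and 2, against 233 bp in the no-antibody library. Pileups compared between libraries were not adjusted for it. The peaks were shallow: the reproducible peaks of the 10 loci had a median pileup of 17 tags in replicate 1 and 13 in replicate 2, against 17 and 12 over all reproducible peaks.

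The 10 loci held 49 reproducible MEIS2 peaks, and every locus held at least 1, as did 92.8% of all protein-coding genes in windows of this kind. There were 89 peaks in MEIS2 replicate 1 and 78 in replicate 2, against 6 in the no-antibody library. Of the replicate 1 peaks in the loci, 55.1% (95% Wilson interval 44.7 to 65.0) were reproducible, against 61.2% of all replicate 1 peaks. A peak in the other MEIS2 library was present for 58.4% of the replicate 1 peaks (48.0 to 68.1), against 67% genome-wide, and for 67.9% of the replicate 2 peaks (57.0 to 77.3), against 64.7%. These intervals cover counting error only, and each of the 3 includes the genome-wide share. Without the Rarb locus, 53.2% of the replicate 1 peaks had a partner (41 of 77, 42.2 to 64.0), an interval that lies below the 67% genome-wide. For replicate 2 that share was 75% (42 of 56, 62.3 to 84.5), against 64.7%. With 50% reciprocal overlap required, the replicate 1 share over all 10 loci was 46.1% (36.1 to 56.4), against 57.9% genome-wide. The 49 peaks amounted to 2.28 per 100 kb of locus. The median of the 10 loci was 2.58 per 100 kb, against a median of 2.7 and quartiles of 1.43 and 4.54 over all protein-coding genes, so the members' median was close to that of all genes.

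**Figure D1:**
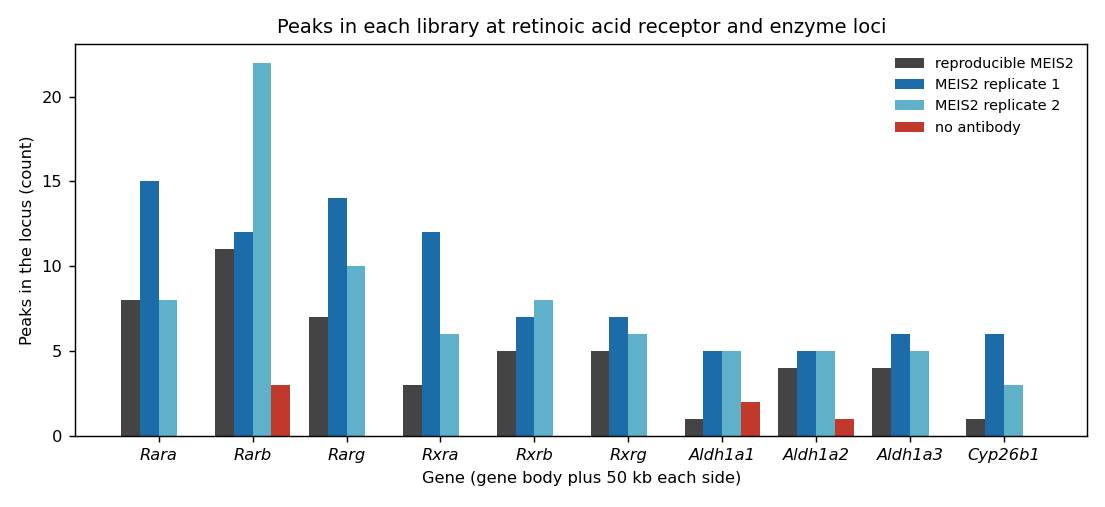
Number of peaks (vertical axis) in each member locus (horizontal axis) that were reproducible, called in MEIS2 replicate 1, called in MEIS2 replicate 2, and called in the no-antibody library. Rarb had the most reproducible peaks (11), Aldh1a1 and Cyp26b1 had 1 each, and no-antibody peaks were present at Rarb, Aldh1a1 and Aldh1a2.

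The loci differed in density. Rarg had 7 reproducible peaks, or 5.71 per 100 kb, and Rara had 8, or 5.44, which placed them at the 84.6th and 82.7th percentiles of all protein-coding genes. Rxrb followed with 4.69, Rxrg with 3.54, Aldh1a3 with 2.93 and Aldh1a2 with 2.22 per 100 kb. Rxra had 1.61 and Rarb 1.46 per 100 kb, at the 28.0th and 25.5th percentiles, and the sparsest loci were Cyp26b1 with 0.816 and Aldh1a1 with 0.399. Rarb therefore had the most peaks but a low density among all genes, since its annotated gene alone covers 651493 bp. Among the 236 genes within 1.5 times its length, Rarb included, its 11 peaks in the gene stood above the median of 6. Of these genes, 31 had as many as Rarb or more, Rarb included. Dense loci were also rich in genes: the windows of Rara, Rarg and Rxrb each touched 6 protein-coding genes, against 2 for Rarb and 2 for Aldh1a1. By position, 15 of the 49 peaks lay inside the member gene, 10 within 1 kb of one of its ends and 4 within 1 kb of a listed start site inside it. A further 9 lay within 1 kb of an end of another protein-coding gene, 6 inside another gene and 5 between genes. Summits more than 1 kb from every protein-coding gene end made up 29 of the 49, against 76.7% of all reproducible peaks. The latter share was taken over the whole genome, also outside windows around genes, so the shares are not of like regions.

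A reproducible summit lay within 1 kb of an end of 8 of the 10 members, all except Rarb and Aldh1a1, against 52.4% of all protein-coding genes. In the no-antibody library no member had a summit there, and 0.27% of all protein-coding genes did. The set of RefSeq start sites used here covered 9 of the members, all but Aldh1a3. Of these 9, 8 had a reproducible summit within 1 kb of a listed start site, against 54.3% of listed protein-coding genes. The member called by neither measure was Aldh1a1. A reproducible summit lay inside the annotated gene of 8 members, all but Aldh1a3 and Cyp26b1, against 59.9% of all protein-coding genes. The calls at gene ends rested on weak peaks: with only peaks of a −log10 q-value of at least 5 in every library, 3 members (Aldh1a2, Aldh1a3 and Rxrb) kept a gene-end peak, against 40.4% of all protein-coding genes.

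Rarb, the receptor gene that retinoic acid itself induces, is annotated at chr14:16430839-17082331. It carried 11 reproducible peaks, all inside the annotated gene, with summits 17.2 to 127 kb apart. Only 1 Rarb start site, at position 16575476, was in the RefSeq set used here, and starts outside that set were not examined. The peak at chr14:16575230-16575773 covered this start, with 13 tags in MEIS2 replicate 1 and 8 in replicate 2 and folds of 8.23 and 5.74. Its summit lay 125 bp downstream of the start site in replicate 1 and at −178 bp, upstream of it, in replicate 2, so the summits were 303 bp apart. The DR5 printed above falls inside the peak interval of both MEIS2 libraries. That no peak of the no-antibody library touched this peak follows from the rule for reproducible peaks.

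Of the 10 peaks inside Rarb away from that start site, 7 had a higher fold than the start-site peak in both MEIS2 libraries. The highest pileup was at chr14:17025538-17026346, −450515 bp from the listed start (upstream of it) but within the annotated gene, with 90 tags in MEIS2 replicate 1 and 88 in replicate 2 and folds of 15.5 and 17.5. The peak at chr14:16974120-16974667 had 47 and 44 tags and folds of 14.4 and 15.3. At chr14:16907701-16908036 the pileup was 31 and 25 tags and the fold 15.9 and 15.2. These 3 sites, and that at chr14:17005896-17006276 with 23 and 24 tags and folds of 13.5 and 14.7, lay in the part of the gene upstream of the listed start, as did 9 of the 11 peaks. Nearer to that start, the peak at chr14:16652850-16653219 had 23 tags in each MEIS2 library and folds of 12.9 and 11.2. On its downstream side, the peak at chr14:16448585-16448959 had 27 and 17 tags and folds of 13.8 and 10.9. The remaining 4 peaks had folds between 5.29 and 9.41 in replicate 1 and between 3.83 and 10.2 in replicate 2. Both replicates therefore ranked the same 6 sites at the top, and the weakest site, at chr14:16862991-16863162, had 8 and 5 tags.

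**Figure D2:**
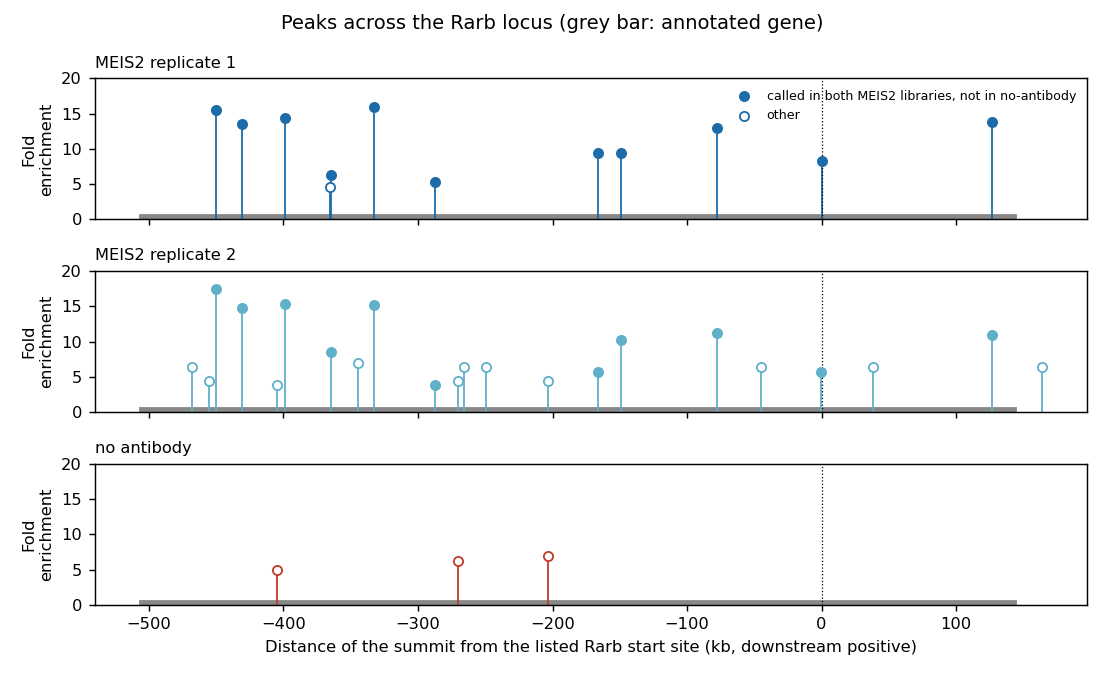
Fold enrichment (vertical axis) of every peak at the Rarb locus by the distance of its summit from the listed start site in kb, with positive values downstream (horizontal axis), in MEIS2 replicate 1, MEIS2 replicate 2 and the no-antibody library; filled points are reproducible sites and the grey bar is the annotated gene. Of the 11 reproducible sites, 9 lie upstream of the start site. That they are in both MEIS2 libraries and apart from the 3 no-antibody peaks follows from the rule that chose them.

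MEIS2 replicate 2 held 22 peaks at the Rarb locus and replicate 1 held 12. The 8 called in replicate 2 alone and clear of the no-antibody library had a median fold of 6.38. A further 3 of replicate 2 touched no-antibody peaks, with pileups of 6, 6 and 5 tags in MEIS2 replicate 2, against 15, 10 and 14 tags in the no-antibody library. At these 3 sites the no-antibody library was thus the higher one, and replicate 1 had no peak.

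Rara, which encodes the widely expressed RAR alpha, had a peak over both neighbouring start sites (98937696 and 98937718) at chr11:98937557-98938116, with 24 tags in MEIS2 replicate 1 and 15 in replicate 2 and folds of 4.84 and 5.05. The summit also lay inside Gm46294, 448 bp from an end of that protein-coding gene in replicate 1 and 547 bp in replicate 2. A second peak, at chr11:98974568-98974841, lay 247 bp from the 3′ end of the gene (annotated at chr11:98927800-98974942), with 27 and 11 tags and folds of 6.09 and 4.19. It is this 3′ peak that made the gene-end call, because the annotated gene begins upstream of the listed start sites. Inside the gene, the peak at chr11:98960302-98960810 had 23 and 18 tags and folds of 5.22 and 5.51. The peaks of highest fold, by the lower of the replicates, belonged by position to its neighbours: folds of 6.04 and 5.46 at chr11:98891930-98892495 inside Wipf2, and 5.88 and 5.74 at chr11:98996539-98996713 inside Top2a. A peak 66 bp from an end of Cdc6 had folds of 6.39 and 5.10. The locus had 7 further peaks in replicate 1 that no replicate 2 peak met, and none in replicate 2 alone.

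Rarg encodes RAR gamma, known in the mouse for roles in skin and skeleton, and is annotated at chr15:102234938-102257522 on the minus strand. The first of its listed start sites, 102257522, was covered by the peak at chr15:102257062-102257685, with 12 tags in MEIS2 replicate 1 and 9 in replicate 2 and folds of 4.06 and 4.15. The peak at chr15:102235348-102235789, 767 bp from the 3′ end, had 11 and 7 tags and folds of 4.84 and 4.67. Inside the gene, at chr15:102247685-102247888, there were 21 and 14 tags and folds of 4.50 and 4.41. The inner start site, 102246500, had no reproducible summit within 1 kb, and the peaks there were called in replicate 1 alone. The 3 reproducible peaks of the gene had lower folds in each library than a pair of peaks outside the gene: that at an end of Zfp740 (chr15:102203315-102204312) had folds of 9.13 and 7.73, and that at an end of Mfsd5 (chr15:102279321-102279805) had 7.54 and 8.63. Like Rara, Rarg had 7 peaks in replicate 1 alone.

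The RXR genes all had a peak at their first listed start site. Rxra, whose product is the widely expressed partner of many nuclear receptors, had a peak on each side of its start at position 27677201. The upstream peak, at chr2:27676174-27677007, had 14 tags in MEIS2 replicate 1 and 17 in replicate 2 and folds of 3.57 and 5.48. Downstream, at chr2:27677492-27677923, there were 18 and 12 tags and folds of 4.35 and 3.88. The third reproducible peak of the locus, at chr2:27802625-27802890, lay 39439 bp beyond the gene and had 13 and 6 tags and folds of 7.60 and 4.33. Rxra had 12 peaks in replicate 1 and 6 in replicate 2, and 9 of the 12 had no counterpart. With a −log10 q-value of at least 5 required, no reproducible peak was left at Rxra or at Cyp26b1.

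Rxrb, which encodes RXR beta, had 1 peak over both of its start sites (34031812 and 34032350), at chr17:34031507-34032462, with 26 tags in MEIS2 replicate 1 and 20 in replicate 2 and folds of 4.36 and 5.09. The other 4 peaks of its locus lay at or in the neighbouring genes H2-K1, Ring1 and Col11a2, the highest at an end of H2-K1 (chr17:33999273-34000368) with folds of 8.66 and 6.93. Rxrg, which encodes RXR gamma, had a peak at each of its listed start sites. That at the first, chr1:167598314-167598566, had 12 tags in MEIS2 replicate 1 and 6 in replicate 2 and folds of 7.64 and 4.46. At the inner start site, 167618265, the peak at chr1:167618262-167618567 had 7 and 5 tags and folds of 4.51 and 3.83. The strongest in the locus by the lower fold were beyond the gene: folds of 7.74 and 6.38 at chr1:167661221-167661497, and 7.43 and 6.05 at chr1:167688320-167689373, 869 bp from an end of Lmx1a.

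**Figure D3:**
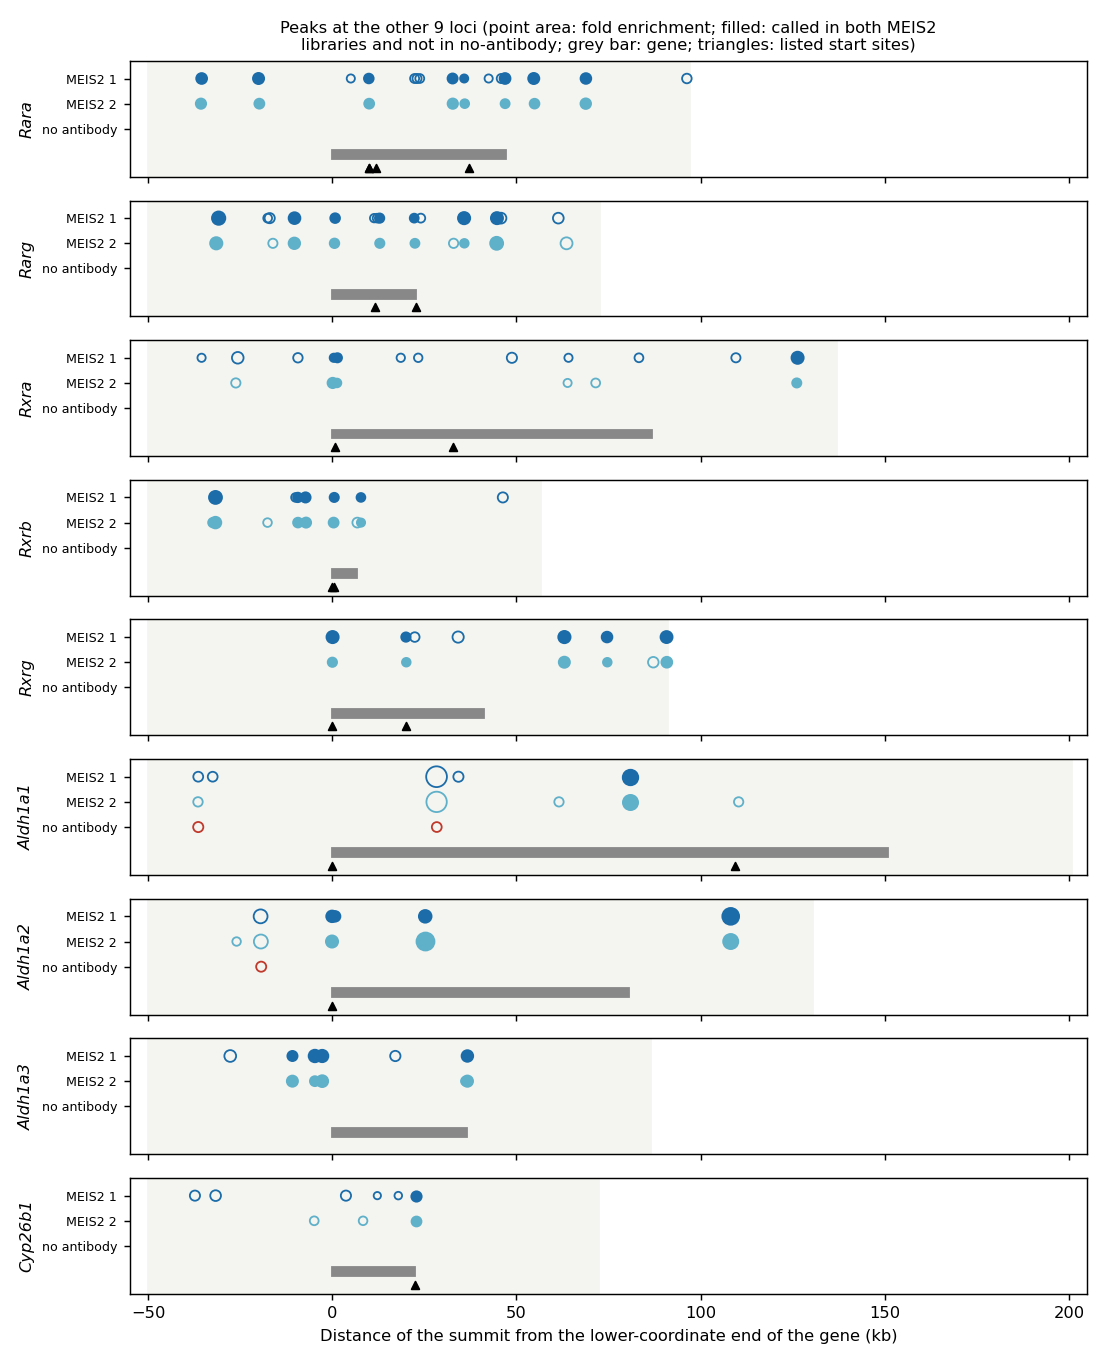
Peaks at the other 9 loci by the distance of the summit from the lower-coordinate end of each gene in kb (horizontal axis), with a row each for MEIS2 replicate 1, MEIS2 replicate 2 and the no-antibody library; point area follows fold enrichment, filled points are reproducible sites, grey bars are genes, triangles are listed start sites and the shaded range is the locus. Most filled points lie at start sites or outside the member genes, and open points of MEIS2 replicate 1 are frequent at Rara, Rarg, Rxra and Cyp26b1.

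Among the synthesis enzymes, Aldh1a3, the enzyme known for the LGE, had a peak at 1 end of its gene (chr7:66390892-66427477) and 3 beyond the other. The gene-end peak, at chr7:66426879-66428040, had 18 tags in MEIS2 replicate 1 and 13 in replicate 2 and folds of 6.90 and 6.56, with its summit 86 bp from the end. Outside the gene, the peak at chr7:66387598-66388455 had folds of 7.84 and 7.20 and lay 200 bp from an end of Lrrk1. Those at chr7:66386059-66386311 and chr7:66379963-66380134 lay inside Lrrk1 and had folds of 8.05 and 5.05 and of 5.29 and 6.38. No reproducible summit lay inside the gene.

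Aldh1a2, the main retinoic acid source of the early mouse embryo, had a peak over its start site, at chr9:71215341-71216233, with 17 tags in MEIS2 replicate 1 and 16 in replicate 2 and folds of 6.92 and 7.62. A second replicate 1 peak, at chr9:71216389-71216608, met the same replicate 2 peak, so the 49 reproducible peaks had 48 distinct partners. Inside the gene, at chr9:71240885-71241171, the pileup was 13 and 27 tags and the fold 8.23 and 16.5, which put this site at the 71.5th percentile of fold in replicate 1 and the 97.6th in replicate 2. The replicates thus differed in how strongly it stood out. The strongest reproducible site of the locus by the lower fold, at chr9:71323784-71324276, lay 27701 bp beyond the gene, with 34 and 23 tags and folds of 14.4 and 11.7.

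Aldh1a1, known in the mouse for the dorsal retina and midbrain dopamine neurons, had a single reproducible peak, inside the gene at chr19:20573194-20573772. It was strong, with 35 tags in MEIS2 replicate 1 and 32 in replicate 2 and folds of 12.3 and 11.8, at the 90.2nd and 91.8th percentiles of their libraries. A stronger site inside the gene, at chr19:20520698-20521179, was not reproducible by the rule because the no-antibody library also had a peak there. There the pileup was 81 and 72 tags in the MEIS2 libraries, against 15 in the no-antibody library. Scaled to 1000000 tags used, these were 10.6 and 11.0, against 2.37, and the fold was 22.0 and 21.2, against 4.94. The overlap rule therefore removed a site that stood at the 99.6th percentile of fold in both MEIS2 libraries and was higher in both than without antibody. With a −log10 q-value of at least 5 required in every library, the no-antibody peak there, at 4.96, was left out. The Aldh1a1 locus then had 2 reproducible peaks.

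A like case stood beside Aldh1a2, at chr9:71195581-71196927 inside Gm32511, with 104 and 99 tags in the MEIS2 libraries, against 22 in the no-antibody library. Scaled to 1000000 tags used, these were 13.7 and 15.1, against 3.47, and folds of 9.84 and 9.98, against 5.2. The second shared site of the Aldh1a1 locus, at chr19:20456087-20456258, went the other way, with 8 tags in each MEIS2 library, against 16 in the no-antibody library. In all, 3 of the 89 replicate 1 peaks (3.37%) and 6 of the 78 replicate 2 peaks (7.69%) touched a no-antibody peak, against 6.01% and 7.07% genome-wide. A no-antibody summit lay in the window of 3 of the 10 members, against 26.6% of all protein-coding genes.

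Cyp26b1, whose product degrades retinoic acid, had 1 reproducible peak, at chr6:84593811-84594189, with 14 tags in MEIS2 replicate 1 and 8 in replicate 2 and folds of 5.48 and 5.06. The interval begins at the base just upstream of the listed start site, so it falls on the Cyp26b1 promoter printed above, with its summit at −210 bp from the start. Another 5 peaks of replicate 1 in this locus had no counterpart in replicate 2.

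Set beside each other by rank, the peaks at the members' own ends and start sites were weak and those inside Rarb were strong. A percentile here is the rank of a peak's fold among all peaks of its library. The 14 peaks at own ends or start sites had a median percentile of 29.9 in MEIS2 replicate 1 and 30.6 in replicate 2, against 65 and 61.1 for gene-end peaks of all genes. The set of all genes was chosen by gene ends alone, whereas 4 of the 14 lay at start sites inside the gene. For the 10 peaks inside Rarb the medians were 92.1 and 90.3, against 60.2 and 61.1 for the distal peaks of all genes. The 5 inside other members had medians of 28.5 and 45.2, and the 9 at ends of neighbouring genes had medians of 63.9 and 56.2. Taking 1 strongest gene-end peak per called gene, 6 of the 8 members fell below the median of all called genes by the lower fold of the MEIS2 libraries, with a median of 4.57, against 6.38. By percentile, these strongest gene-end peaks of the members had medians of 42 in replicate 1 and 30.9 in replicate 2, against 67.8 and 64. Above the 90th percentile in both libraries were 8 of the 49 peaks (16.3%), against 8.78% of all reproducible peaks. Of these 8, 6 lay inside Rarb, 1 inside Aldh1a1 and 1 beyond Aldh1a2. These are descriptions of single libraries and were not tested.

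**Figure D4:**
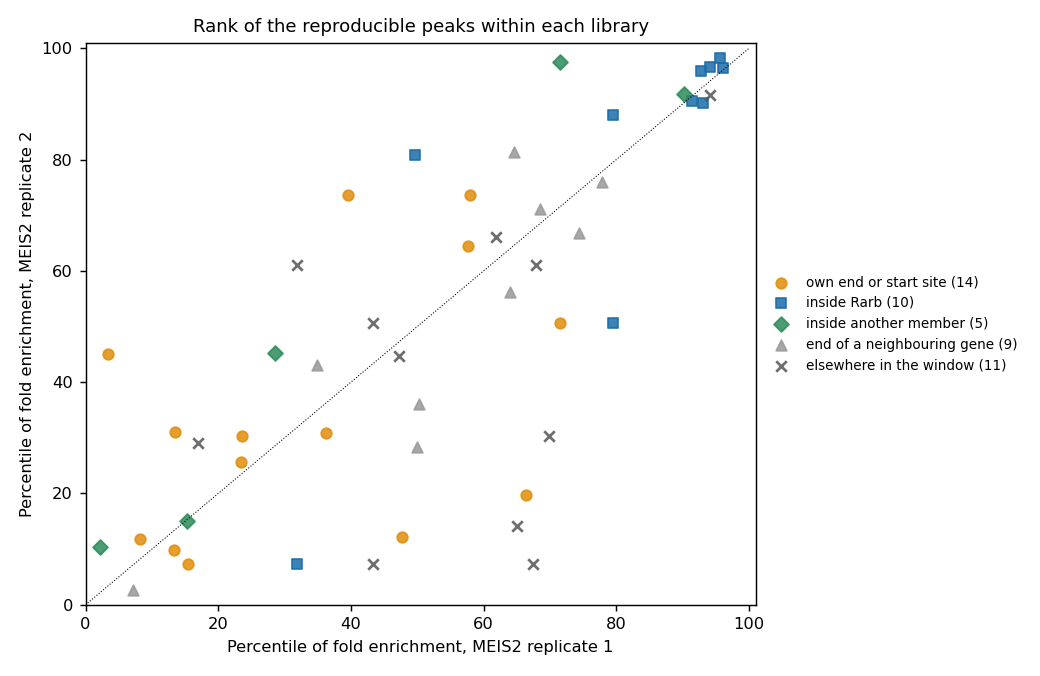
Percentile of fold enrichment within MEIS2 replicate 1 (horizontal axis) and MEIS2 replicate 2 (vertical axis) for the 49 reproducible peaks, with symbols for their position; the dotted line marks equal percentiles. Squares for sites inside Rarb crowd the upper right corner, with medians of 92.1 and 90.3, and circles for own ends and start sites lie lower, with medians of 29.9 and 30.6.

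The rank by fold depends on the surroundings of a peak as well as on its tags. The tags expected at a summit, worked back from the deposited pileup and fold in replicate 1, had a median of 0.935 for the peaks inside Rarb and 1.75 for those at own ends and start sites, against 1.19 over all reproducible peaks. The lowest value in replicate 1 was 0.701, and 9 of the 49 peaks stood at it. In pileup the contrast was smaller, with medians of 23 tags in replicate 1 and 20.5 in replicate 2 inside Rarb, and 14 and 11.5 tags at own ends and start sites. The part that the local background had in the order of folds was not tested.

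**Figure D5:**
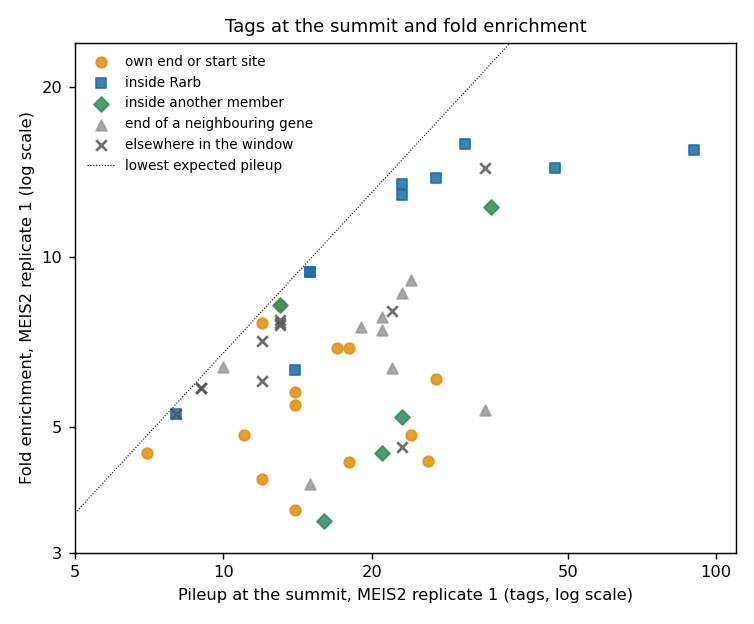
Pileup at the summit in tags (horizontal log axis) and fold enrichment (vertical log axis) of the 49 reproducible peaks in MEIS2 replicate 1, with symbols for their position; the dotted line is the fold reached at the lowest expected pileup (0.701). Most sites inside Rarb lie near the line or far to the right, up to 90 tags, and most own ends and start sites lie below it, with 7 to 27 tags.

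Base composition moved with the calls at start sites. Of the 17 listed member start sites, the 11 with a reproducible summit within 1 kb had a median G+C content of 65.2% (49.2 to 82.4) in the upstream 250 bases, and the 6 without had 53.8% (42.8 to 59.6). Their median numbers of CpG dinucleotides were 13 and 2.5. The start sites are not independent. The neighbouring Rara starts, 98937696 and 98937718, have overlapping upstream bases, each with 65.2% G+C and 13 CpGs, the values of these medians. Over all protein-coding start sites the medians were 62.8% with a peak and 48.4% without, and 18 and 3 CpGs, so the members followed the genome-wide pattern. Among the start sites with peaks, Rxrg was the poorest in G+C, at 49.2%, and the Aldh1a1 starts without a peak had 42.8% and 46.4%. Whether composition sets the calls was not tested.

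The other genes of the pathway, chosen by role, gave 18 of 31 with a reproducible summit at a gene end (58.1%), against 52.4% of all protein-coding genes. All 31 had at least 1 reproducible peak within the gene and 50 kb around it. Among coregulators of the receptors 5 of 6 were called, among nuclear receptors that pair with RXR 7 of 10, among genes for retinoid transport and storage 4 of 7, among degradation enzymes 1 of 2, and among retinol and retinaldehyde enzymes 1 of 6. The exception among those enzymes was Rdh10, which makes retinaldehyde from retinol, with folds of 7.42 in both MEIS2 libraries. The highest gene-end folds were at Pparg, a nuclear receptor of fat cells, with 9.94 and 9.36, and at Fabp5, a fatty acid and retinoic acid carrier, with 10.0 and 9.28. Next came Ncoa1, a coactivator, with 8.6 and 8.5, and Rbp4, the retinol carrier of the blood, with 9.82 and 8.22. By the lower fold of the MEIS2 libraries, each of these 5 was above every member, of which Aldh1a2 was the highest at 6.92. In the gene and 50 kb around it, Thra, a thyroid hormone receptor gene, had 9 reproducible peaks and Ppard, a nuclear receptor gene of lipid metabolism, had 8.

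Of the other pathway genes, only Cyp26a1, a degradation enzyme gene that retinoic acid induces, was examined singly for a DR5, and it held 1. Its match, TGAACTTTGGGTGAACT, is printed on the gene's own strand, the plus strand of chromosome 19, where it lies 32 to 16 bases before the start site. The direct repeat itself reads on the opposite strand there, whereas at Rarb it reads on the gene's strand. A peak of both MEIS2 libraries covered the start, at chr19:37697644-37698374, with folds of 3.38 and 4.48. Over all start sites, a reproducible summit lay within 1 kb of 6 of the 16 with a DR5, against 11075 of all 21263.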

How the data were processed

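CUT&Tag of the LGE gave 2 MEIS2 libraries and 1 no-antibody library, grouped by their labels. Per the file headers, the authors called peaks in each library separately with MACS 2.2.7.1, with no control, a q cutoff of 0.05 and at most 1 tag per position. Tools in the submitters' processing notes are Bowtie2 2.3.4, Trimmomatic, Picard and, unlike the headers, MACS2 2.1.4, with the build mm10. The deposited signal is the pileup in tags, with no depth scaling. Fold enrichment, also as deposited, is a ratio of the pileup to the expected pileup, each with 1 added, and was ranked only within a library. Of the values on a −log10 scale that the authors deposited, the q-value served as a stricter threshold, and the p-value was not used. The caller used 7618406 and 6559629 tags in the MEIS2 libraries and 6337375 in the no-antibody library, so folds at low pileup rest on few tags.

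A peak was placed by its summit, and overlap meant at least 1 bp. Gene ends came from the RefSeq gene table of GRCm38.p6, which has no strand, and start sites and strand from the RefSeq promoter table; introns, exons and UTRs were not distinguished. Peak sequences were not used here, so motifs were searched only in the 250 upstream bases, on both strands. Peaks off the main chromosomes (315, 323 and 69) were left out. With 2 MEIS2 libraries and 1 no-antibody library no test across libraries was made, and shares carry 95% Wilson intervals. All 10 members were named. Their named peaks were those nearest each gene end within 1 kb, the 2 of highest lower fold per locus, and every peak touching a no-antibody peak. The 5 other pathway genes with the highest lower fold at a gene end and the 3 with most peaks were also chosen, of which 1 is not reported here. All other named peaks and genes, the RefSeq start sites, Cyp26a1 and the comparison of Rarb with genes of its length were picked after seeing values. The members and lists were chosen with earlier results of these data known. The calculations, in Python 3.11.15 with pandas 2.3.3 and scipy 1.17.1, were tested on simulated data. Alternatives were other overlaps, thresholds, distances and flanks, each replicate left out, the other replicate as base, no control filter, whole intervals and RefSeq start sites.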

Additional observations from a re-analysis of the deposited data

How the results depend on the processing

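With a −log10 q-value of at least 5, gene-end members numbered 3, members with a peak in the gene 5, and replicate 1 peaks touching a no-antibody peak 1. Among the 5000 peaks of highest fold in each library, gene-end members numbered 0 (0.119% of all genes), members with a peak in the gene 2, other pathway genes with a gene-end peak 0, reproducible peaks 4, distal ones 4 (0.186 reproducible peaks per 100 kb) and MEIS2 peaks touching a no-antibody peak 0, and 80% of replicate 1 peaks (4 of 5) had a partner. With flanks of 100 kb there were 77 reproducible peaks and 49 distal ones. With 50% reciprocal overlap, 46.1% of replicate 1 peaks had a partner (36.1 to 56.4), against 57.9% genome-wide; with flanks of 100 kb the share was 57.9% (49.6 to 65.7), against 67%. Both intervals lie below the genome-wide share. With replicate 2 as the base, 6 MEIS2 peaks touched a no-antibody peak, and with a gene end taken as 5000 bp, 28 other pathway genes were called. Using 1 MEIS2 library alone gave 72 to 86 peaks clear of the no-antibody library, 51 to 64 distal ones, 3.35 to 4.01 per 100 kb and 3 to 6 touching a no-antibody peak, with 8 gene-end members either way and 10 members with a peak in the gene; the partner share needs both libraries. The cause was not tested where the construction (fewer peaks, 1 library, wider windows) does not give it. The other 75 alternatives for these results stayed within 1.5 times, or within the interval for the share, and 37 of 110 alternatives for the counts of single loci moved further. No paired analysis was possible because the MEIS2 and no-antibody groups share fewer than 2 replicate numbers and no result comes from a test. Pileups of 5 to 8 tags limit what a missing partner peak can show.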

Other observations

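Rarb was also set beside the 235 other protein-coding genes within 1.5 times its length, as a description with no test, chosen after its values were seen. It had 11 reproducible peaks in the gene, against a median of 6 and quartiles of 4 and 8.25 over 236 genes, Rarb included. Its median percentile of fold was 91.4 in MEIS2 replicate 1 and 90.1 in replicate 2, against medians of 69.5 and 70.7. By fold, 6 of its peaks stood above the 90th percentile in both MEIS2 libraries, against at most 5 in any of the 235 genes. Among the 473 other genes within 2 times its length, 1 had as many. By pileup it had 2 such peaks, and 45 of the 235 genes had at least as many. Above the 95th percentile of fold it had 2, and 18 of the 235 had at least as many. The standing of Rarb among genes of its length therefore depended on the measure, on the percentile and on the range of lengths taken.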
